A study of Mus musculus with 163 samples.

Results

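Outer hair cells (OHCs) that had lost Rbm24 were divided by Neurod6, a basic helix-loop-helix transcription factor gene of neurons. Cells with Neurod6 at 10 CPM or more (counts of the gene per 1000000 counts of the cell) formed one set and cells under 10 CPM the other. Of 56 mutant OHCs, 18 carried Neurod6 (32.1%, exact binomial 95% interval 20.3 to 46.0%) and 38 did not. They belong to a series of 163 single mouse cochlear hair cells, all taken on postnatal day 7.

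Mutant cells (labelled Exp) came from Atoh1P2A-Cre/P2A-Tdtomato/+; Rbm24flox/flox mice, in which Cre is expressed from the Atoh1 locus and Rbm24, an RNA-binding protein gene, is deleted in cells that express Atoh1. Control cells (labelled Ctrl) came from Atoh1P2A-Tdtomato/+ mice with intact Rbm24, and Tdtomato marked the hair cells of both genotypes. Single Tdtomato+ cells were picked by hand and their full-length cDNA was sequenced, giving 43 Ctrl OHCs, 56 Exp OHCs, 38 Ctrl inner hair cells (IHCs) and 26 Exp IHCs. The labels name no animal and do not say how a cell was called inner or outer. Each set of cells was therefore taken as 1 sample and no test was made. Intervals of levels and ratios cover counting error only. The interval of the share of cells with Neurod6 treats cells as independent draws, which the labels cannot show. Reads of amplified cDNA are not independent molecules, and differences between animals could not be measured.

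OHCs amplify sound through prestin, the motor protein encoded by Slc26a5, and their identity is maintained by the transcription factor Ikzf2 (Helios). Basic helix-loop-helix factors drive hair cell and neuron formation. Atoh1 starts the hair cell programme, and the NeuroD factors act in neuronal differentiation. They bind E-boxes, short sites of the form CANNTG that reads the same on both strands. Rest is a repressor that silences neuronal genes outside the nervous system, and in mouse hair cells the splicing factor Srrm4 is known to inactivate its protein through alternative splicing.

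Both sets carried hair cell markers and lacked the defining IHC marker, while some OHC markers were low (given further on). Pou4f3, a hair cell survival factor, was between 80.4 and 607 CPM in the cells with Neurod6 and between 127 and 963 CPM in those without. Chrna9 and Chrna10, the subunits of the efferent acetylcholine receptor, reached 10 CPM in all 18 and all 38 cells. Slc17a8, the glutamate transporter gene that marks IHCs, was at most 0.0949 CPM with Neurod6 and at most 0.353 CPM without, against 66 to 630 CPM in Ctrl IHCs. Rbm24 was 0.201 CPM with Neurod6 and 0.218 CPM without, against 315 CPM in Ctrl OHCs. Markers of glia, erythroid and endothelial cells all stayed under the minimum of 10 CPM in the mean of the 2 sets.

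The depth of the 2 sets was alike. Total counts per cell were 9708178 to 15982902 (median 11959700) with Neurod6 and 8342675 to 17030160 (median 13136000) without. A typical cell with Neurod6 had counts in 9764.5 genes and one without in 9698.5 (medians), and the median mitochondrial share was 4.18% and 4.51%. The title numbers fell into 2 blocks. Cells numbered 1 to 16 all carried Y-linked transcripts and had Gm15772 at 11.0 to 22.1 CPM, while those numbered 17 to 56 carried no Y-linked transcripts at 1 CPM and had Gm15772 at 85.7 to 596 CPM. Cells with Neurod6 made up 5 of 16 in the first block (31.2%) and 13 of 40 in the second (32.5%), so each comparison could be repeated within a block. In the second block 3 cells had neither Xist nor Y-linked transcripts at 1 CPM, and all 3 were in the set with Neurod6.

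Neurod6 (ENSMUSG00000037984, chromosome 6, positions 55677822 to 55681263 on the minus strand of GRCm38, the build also called mm10) chose the sets, so its values are a description. In the 18 cells with Neurod6 it ranged from 12.3 to 1021 CPM with a median of 104 CPM, and 9 cells were at 100 CPM or more. Of the other 38 cells, 29 had no count, 6 had a count but stayed under 1 CPM, and 3 lay between 1 and 10 CPM. Just inside the threshold were cells at 12.3 and 29.0 CPM, and just outside it were cells at 9.58, 8.68 and 4.81 CPM. The highest cell held 32.2% of all Neurod6 counts of mutant OHCs and the 2 highest cells 49.0%. Only these few cells lay near the threshold. In the first block the 5 cells were at 160, 90.0, 83.7, 46.3 and 42.3 CPM, all below the highest values of the second block.

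**Figure D1:**
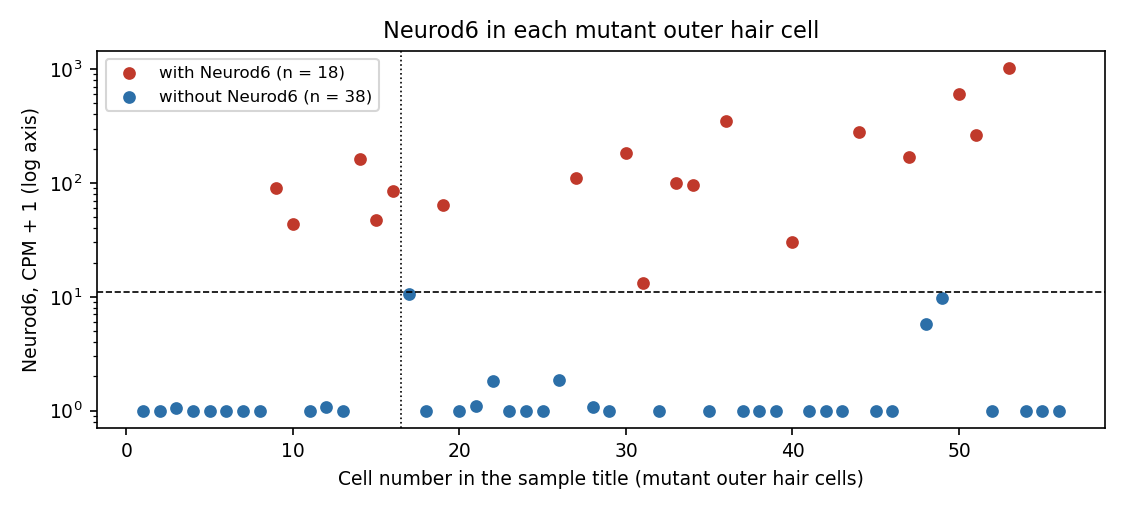
Neurod6 (CPM + 1, log axis) in each of the 56 mutant OHCs by the number in its title; the dashed line marks the threshold of 10 CPM and the dotted line the border between numbers 16 and 17. Cells with Neurod6 (18) occur in both blocks, and 29 of the other 38 cells had no count.

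Neurod6 was close to absent from the other groups. It reached 10 CPM in 1 of 43 Ctrl OHCs, at 21.0 CPM, and the next Ctrl OHC was at 6.88 CPM. No Ctrl IHC had a count, and 4 of 26 Exp IHCs had one, at 0.111 CPM or less. The neuronal relatives Neurod1, Neurod4, Neurog1, Neurog2 and Bhlhe22 had no count in any mutant OHC.

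The promoter of Neurod6 and that of Igll1, a gene found only in mutant cells and high in most cells with Neurod6, are shown. E-boxes, the sites of the factor's family, are in capitals. Neurod6 chose the sets and was not compared, and Igll1 is among the 12 higher genes named below. The sequences are those of RefSeq on GRCm38.p6, from 250 bases before the gene's start to 50 after it, on the minus strand at chr6:55681214-55681513 and chr16:16863936-16864235.
Neurod6: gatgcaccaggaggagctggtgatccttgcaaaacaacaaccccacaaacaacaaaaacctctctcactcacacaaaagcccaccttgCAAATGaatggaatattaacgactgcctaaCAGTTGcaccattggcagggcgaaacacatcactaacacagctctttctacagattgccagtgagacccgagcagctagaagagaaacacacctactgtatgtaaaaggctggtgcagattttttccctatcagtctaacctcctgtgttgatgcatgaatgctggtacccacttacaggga
Igll1: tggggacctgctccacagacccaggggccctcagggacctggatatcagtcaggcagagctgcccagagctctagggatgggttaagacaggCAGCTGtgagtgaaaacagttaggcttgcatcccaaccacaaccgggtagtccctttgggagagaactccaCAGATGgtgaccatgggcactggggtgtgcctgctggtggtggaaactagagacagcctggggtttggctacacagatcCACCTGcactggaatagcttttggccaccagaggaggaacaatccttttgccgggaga
The Neurod6 promoter held 2 E-boxes, and that of Igll1 held 3. CAGATG, a form known to be bound by NeuroD factors, was searched on both strands and was among the 3 in the Igll1 promoter but not in that of Neurod6. An E-box of any form was present in 72.3% of 32851 mouse promoters of this length, and the NeuroD form in 17.2%. An E-box was present in 5 of 9 promoters found for the 12 higher genes named below and in 6 of 10 promoters found for 8 of the 12 lower genes. These counts were not above the share over all promoters, and a match is not evidence of binding.

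Among 9222 genes with 10 CPM or more in the mean of both sets, most were alike: 85.8% lay within 2-fold, and the median log2 ratio of cells with over cells without Neurod6 was 0.05. Of these genes 709 were 2-fold or more higher with Neurod6 (7.69%) and 600 were 2-fold or more lower (6.51%). These shares are the background for each count from a gene list below. A gene that is low in one set can pass the minimum through the other set alone, which favours a large ratio. This holds for each compared gene below whose level in 1 of the sets is under 10 CPM. Within the smaller sets of the first block 11.2% of genes were 2-fold higher and 14.5% lower, and in the second block 10.9% and 9.09%. In both blocks at once 313 genes were higher (3.4% of 9213) and 299 were lower (3.25%). The higher genes shared by the blocks were 30.2% of those in the first block and 31.1% of those in the second, and 7.54% of the genes higher in the first block were 2-fold lower in the second. For the lower genes the shared part was 22.4% and 35.8%, and 12.9% of those in the first block were 2-fold higher in the second.

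Of the lower genes named here, Rest had the largest ratio (ENSMUSG00000029249, chromosome 5, 77265491 to 77286432, plus strand). In the cells with Neurod6 Rest ranged from 0 to 6.57 CPM with a median of 0, and none of the 18 reached 10 CPM. In the cells without Neurod6 it ranged from 0 to 175 CPM with a median of 11.7 CPM, and 19 of 38 reached 10 CPM. At this threshold no mutant OHC had both genes, while 19 cells had neither gene at 10 CPM. The separation depends on the threshold. The cells just under it, at 9.58 and 8.68 CPM of Neurod6, had Rest at 54.6 and 66.7 CPM, and the cell at 4.81 CPM had no Rest count. Rest was picked for its size, and how many of all genes separate in this way was not counted. The summed level was 0.446 CPM against 36.0 CPM, a log2 ratio of -6.34 (-6.64 to -6.05), with -4.60 in the first block and -8.85 in the second. A single cell held 85.0% of the Rest counts of the set with Neurod6, and without the highest cell of each set the ratio was -8.89. Rest was present in the other groups: it reached 10 CPM in 27 of 43 Ctrl OHCs (summed level 51.6 CPM), in 24 of 38 Ctrl IHCs (40.1 CPM) and in 19 of 26 Exp IHCs (40.4 CPM).

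Ikzf2 (ENSMUSG00000025997, chromosome 1, 69531214 to 69687245, minus strand), the factor that maintains OHC identity, was 5.14 CPM with Neurod6 and 55.7 CPM without, against 174 CPM in Ctrl OHCs. Single cells ranged from 0 to 96.3 CPM (median 0.0313) with Neurod6 and from 0 to 348 CPM (median 8.77) without. It reached 10 CPM in 2 of 18 cells with Neurod6, in 19 of 38 without and in 37 of 43 Ctrl OHCs. The log2 ratio was -3.44 (-3.52 to -3.35), with -9.25 and -2.83 in the blocks and -5.56 without the highest cell of each set. Taking both genes together, 2 of 18 cells with Neurod6 had Rest or Ikzf2 at 10 CPM, against 28 of 38 without. Both genes were picked on these cells as lower with Neurod6, which favours such a count. Other pairs of genes were not counted, and nothing further is read from it.

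**Figure D2:**
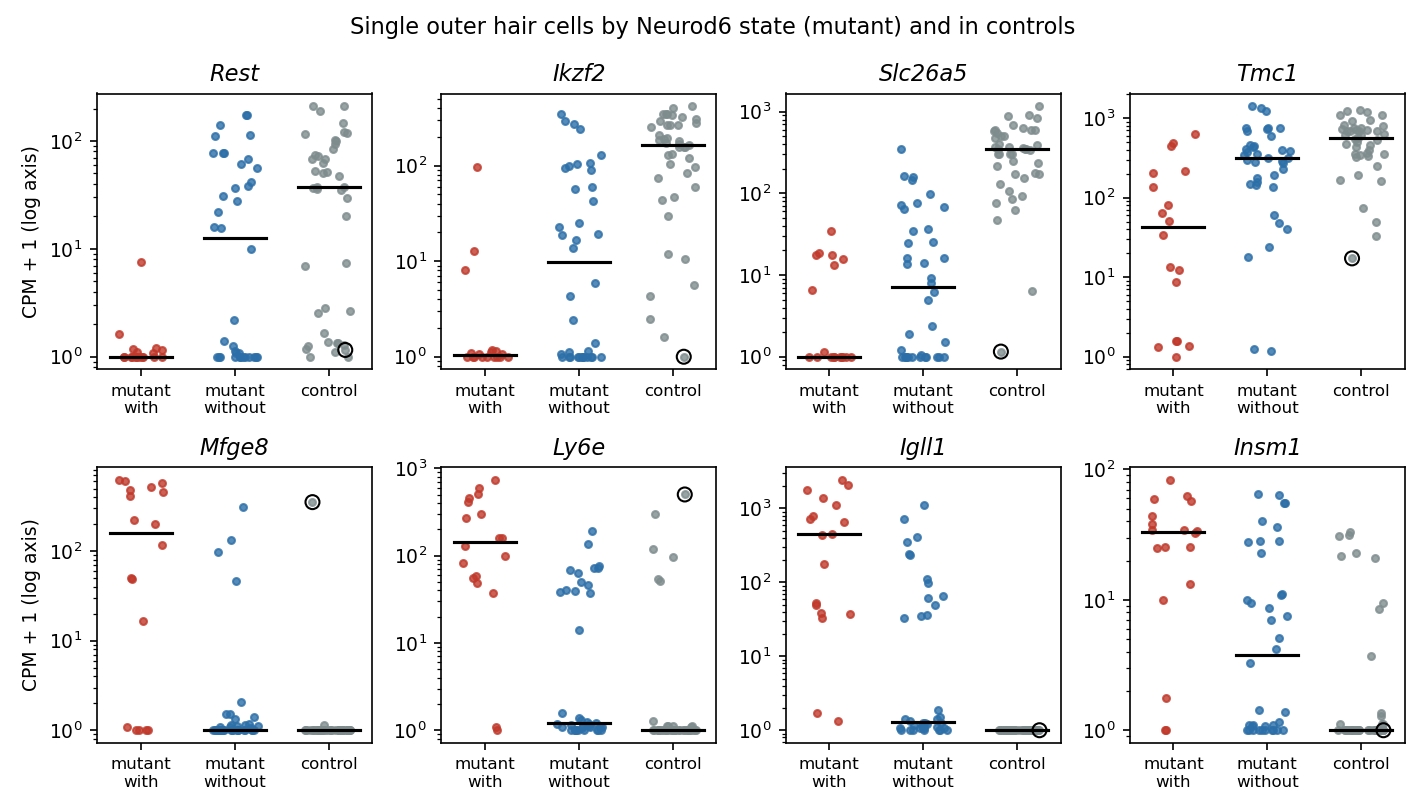
Level of 8 genes (CPM + 1, log axis) in single OHCs: mutant with Neurod6 (18), mutant without (38) and control (43). Bars mark medians and the circle marks the 1 Ctrl OHC with Neurod6 at 10 CPM; Rest stayed under 10 CPM in all 18 cells with Neurod6, and Slc26a5 was at most 33.8 CPM in them.

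Some genes of mature OHC function were lower in the cells with Neurod6 than in those without. Of 18 OHC genes 17 passed the minimum. Among these, 8 were 2-fold or more lower and 9 were within 2-fold, 4 of these 9 above 0. The median log2 ratio was -0.63 against 0.05 over all genes. Of the 8, Ikzf2, Ocm and Slc26a5 were under 10 CPM with Neurod6 and passed the minimum only through the cells without it. Slc26a5 ranged from 0 to 33.8 CPM with Neurod6 (6 of 18 cells at 10 CPM) and from 0 to 349 CPM without (17 of 38 cells). Its summed level was 6.61 and 36.9 CPM (log2 ratio -2.48, -2.56 to -2.41), both far below the 376 CPM of Ctrl OHCs. In the first block 3 of 5 cells with Neurod6 and 8 of 11 without reached 10 CPM. There 1 cell without Neurod6 was at 349 CPM and the next at 33.5 CPM, against at most 16.7 CPM with Neurod6. In the second block 3 of 13 and 9 of 27 cells reached 10 CPM. Ocm, which encodes the calcium buffer oncomodulin, was 3.24 and 25.5 CPM against 4951 CPM in Ctrl OHCs. It reached 10 CPM in 2 of 18 cells with Neurod6 and 13 of 38 without, and its ratio was -7.76 in the first block and -2.38 in the second, and -3.63 without the highest cells. The water channel gene Aqp11 was 28.4 and 159 CPM (log2 ratio -2.48), and the actin-nucleating leiomodin gene Lmod3 was 136 and 487 CPM (-1.84). The small-conductance potassium channel gene Kcnn2, which acts with the efferent receptor, was 67.6 and 155 CPM (-1.19), and Strip2 was 463 and 998 CPM (-1.11). Chrna9 and Chrna10 did not share this: their ratios were 0.30 and -0.09. Bcl11b was 29.2 and 35.9 CPM, a ratio of -0.30.

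The mechanotransduction channel gene Tmc1 was among these 8. It ranged from 0 to 628 CPM (median 41.5) with Neurod6, from 0.186 to 1411 CPM (median 309) without, and from 16.2 to 1264 CPM in Ctrl OHCs. The summed level was 120 and 400 CPM, a log2 ratio of -1.74 with -2.54 and -1.39 in the blocks. Its early-stage partner Tmc2 was 30.7 and 67.0 CPM (-1.12), and Piezo2, a stretch-activated channel gene, was higher at 187 and 80.8 CPM (1.21). The other 10 of 13 genes of the mechanotransduction list that passed lay within 2-fold, and the list's median was 0.03. The hair bundle list behaved alike: of 42 genes that passed, 41 lay within 2-fold, none was 2-fold lower, and only Tprn, a taper protein gene of the stereocilia base, was 2-fold higher (145 and 44.4 CPM, 1.71).

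By a rule of size, share of cells and direction in both blocks, 12 lower and 12 higher genes were named. The lower ones besides Rest and Ikzf2 were Myot, Otos, Ephx4, Chst2, Nacc2, Prcd, Nfib, Rassf2, Ppp4r4 and Ephx1, and all 12 were 2-fold or more lower in both blocks. Nfib, a transcription factor of differentiating cells, was 30.1 CPM with and 202 CPM without Neurod6 (log2 ratio -2.75), and it reached 10 CPM in 6 of 18 and 29 of 38 cells. A single cell held 58.2% of its counts with Neurod6, and the ratio was -3.80 without the highest cells. Chst2, a sulfotransferase gene, was 10.2 and 82.1 CPM (-3.01), against 437 CPM in Ctrl OHCs. Ppp4r4, which encodes a regulator of protein phosphatase 4, was 20.9 and 130 CPM (-2.64), but a single cell held 94.1% of the counts with Neurod6 and the ratio without the highest cell of each set was -6.40. Myot, the gene of the muscle protein myotilin, was 4.54 and 59.5 CPM (-3.71; -5.27 without the highest cells). Ephx1 and Ephx4, epoxide hydrolase genes, were 33.7 and 210 CPM (-2.64) and 6.46 and 52.6 CPM (-3.03; -3.69 without the highest cells). For 11 of the 12 genes the level without Neurod6 was the nearer to the Ctrl OHC level. The genes were chosen as low with Neurod6, which largely fixes this for a gene present in Ctrl OHCs. The share over all genes was not counted, and nothing is read from it. Reads of Prcd may include those of Cygb, which overlaps it on the other strand, since strand use in the counting is not stated.

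Otos, which encodes otospiralin, also stands in the list of mesenchyme markers. It was 7.13 CPM with and 74.2 CPM without Neurod6 (-3.38; -3.99 without the highest cells), and it reached 10 CPM in 39 of 43 Ctrl OHCs and 38 of 38 Ctrl IHCs. The other 9 of 10 mesenchyme genes did not pass the minimum, and Col1a2, Col3a1, Postn and Tbx18 had no count in any mutant OHC. The summed level of the list was 0 to 73.0 CPM in cells with Neurod6 and 0 to 512 CPM in cells without, and its part in the result was not tested. Of the supporting cell list 3 of 20 genes passed, and their summed list was 0.353 to 535 CPM with Neurod6 and 0.0997 to 366 CPM without.

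**Figure D3:**
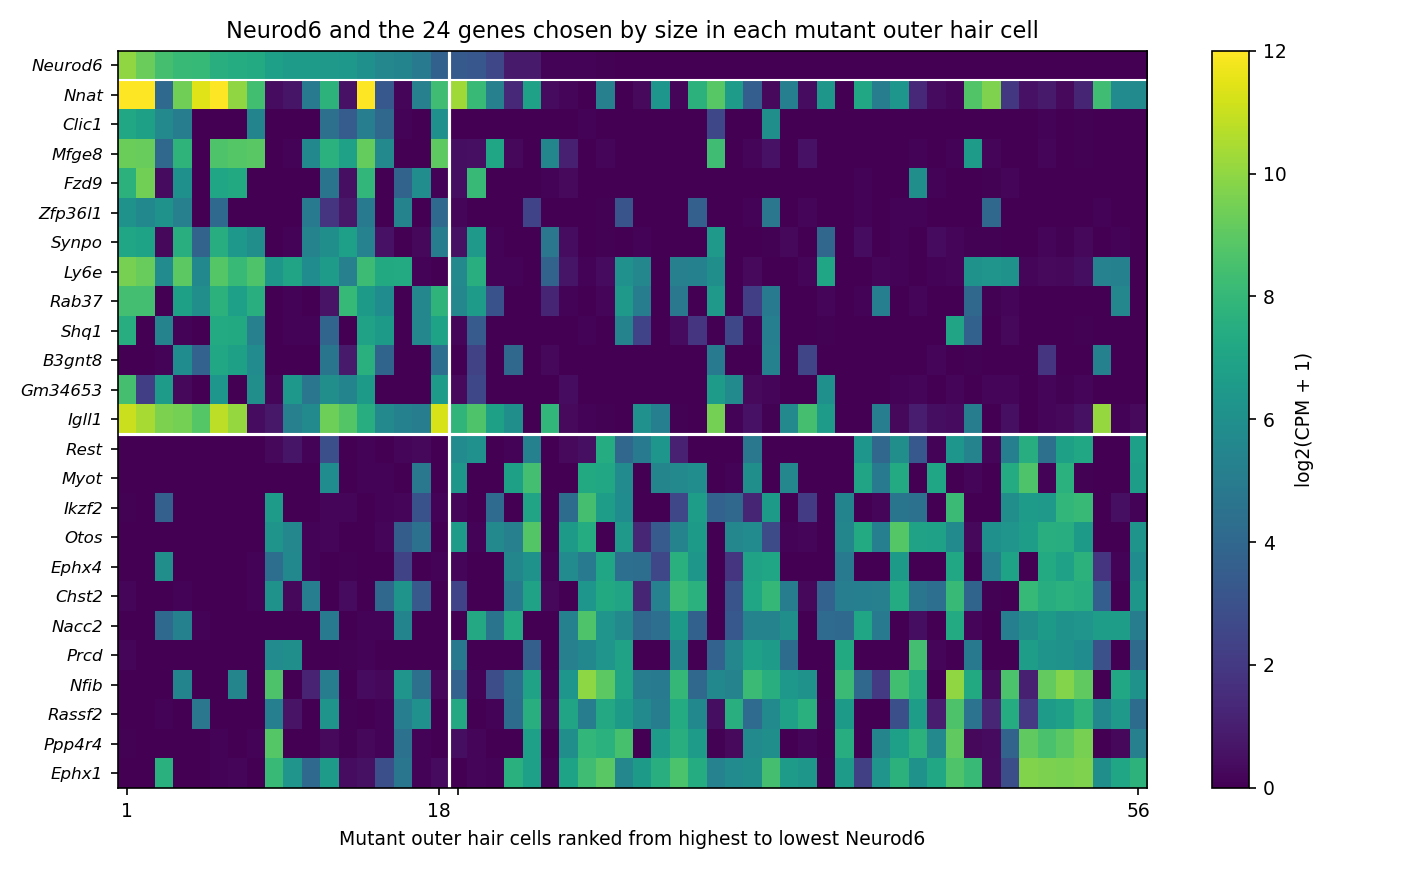
log2(CPM + 1) of Neurod6 and the 24 named genes in the 56 mutant OHCs, ranked from highest to lowest Neurod6; the vertical line follows the 18th cell and the horizontal lines separate Neurod6, the 12 higher and the 12 lower genes. The genes were chosen on these cells, and the plot shows how they vary within each set.

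The 12 higher genes were Nnat, Clic1, Mfge8, Fzd9, Zfp36l1, Synpo, Ly6e, Rab37, Shq1, B3gnt8, Gm34653 and Igll1, and 10 of them were 2-fold or more higher in both blocks. In 11 of the 12 the median cell without Neurod6 was under 1 CPM. For all 12 lower genes the median cell with Neurod6 was under 1 CPM. The choice by size favours both counts, and the share over all genes was not counted. Mfge8 (ENSMUSG00000030605, chromosome 7, 79133768 to 79149060, minus strand) encodes a secreted protein that bridges dying cells to phagocytes. It ranged from 0 to 630 CPM (median 158) with Neurod6, reaching 10 CPM in 13 of 18 cells, and from 0 to 314 CPM (median 0) without, reaching 10 CPM in 4 of 38. The summed level was 247 and 17.9 CPM, a log2 ratio of 3.79 (3.76 to 3.82), with 2.41 and 4.60 in the blocks. A single cell held 55.8% of the counts without Neurod6, and the ratio without the highest cell of each set was 4.74.

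Ly6e, a membrane-anchored surface protein gene, was 242 and 25.5 CPM (3.25), in 16 of 18 and 14 of 38 cells at 10 CPM, with 2.87 and 3.35 in the blocks. Synpo, an actin-associated protein gene of spines and podocytes, was 63.2 and 6.06 CPM (3.38), in 12 of 18 and 4 of 38 cells. Rab37, a GTPase gene of vesicle secretion, was 121 and 13.9 CPM (3.12). Fzd9, a Wnt receptor gene, was 95.8 and 8.50 CPM (3.49), with 9 of 18 and 2 of 38 cells at 10 CPM. Its counts were uneven: single cells held 46.0% and 83.1% of them, and the ratio without those cells was 5.22. For Clic1, a chloride intracellular channel gene at 31.4 and 2.15 CPM (3.87), 1 cell held 92.3% of the counts without Neurod6, and the ratio without the highest cells was 7.07. Reads of B3gnt8 may include those of the overlapping Bckdha.

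Nnat, the imprinted neuronatin gene of neurons and endocrine cells, had the largest ratio of these 12 genes but depended on the block. It was 2251 and 121 CPM overall (log2 ratio 4.22), with 0.28 in the first block and 4.52 in the second. Single cells ranged from 0.166 to 11889 CPM with Neurod6 and from 0 to 1260 CPM without. The share of cells at 10 CPM was 13 of 18 and 20 of 38. Zfp36l1, an mRNA decay factor gene, was also under 2-fold in the first block (0.93).

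Igll1 (ENSMUSG00000075370, chromosome 16, 16860671 to 16863985, minus strand), which encodes a surrogate light chain of B cell precursors, had no count in any Ctrl OHC or Ctrl IHC. It ranged from 0.337 to 2461 CPM (median 443) with Neurod6 and from 0 to 1101 CPM (median 0.306) without. It reached 10 CPM in 16 of 18 and 14 of 38 cells. The summed level was 700 and 94.3 CPM, a log2 ratio of 2.89 (2.88 to 2.91), with 1.66 and 3.13 in the blocks. Exp IHCs, with almost no Neurod6, had Igll1 at 10 CPM in 14 of 26 cells.

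**Figure D4:**
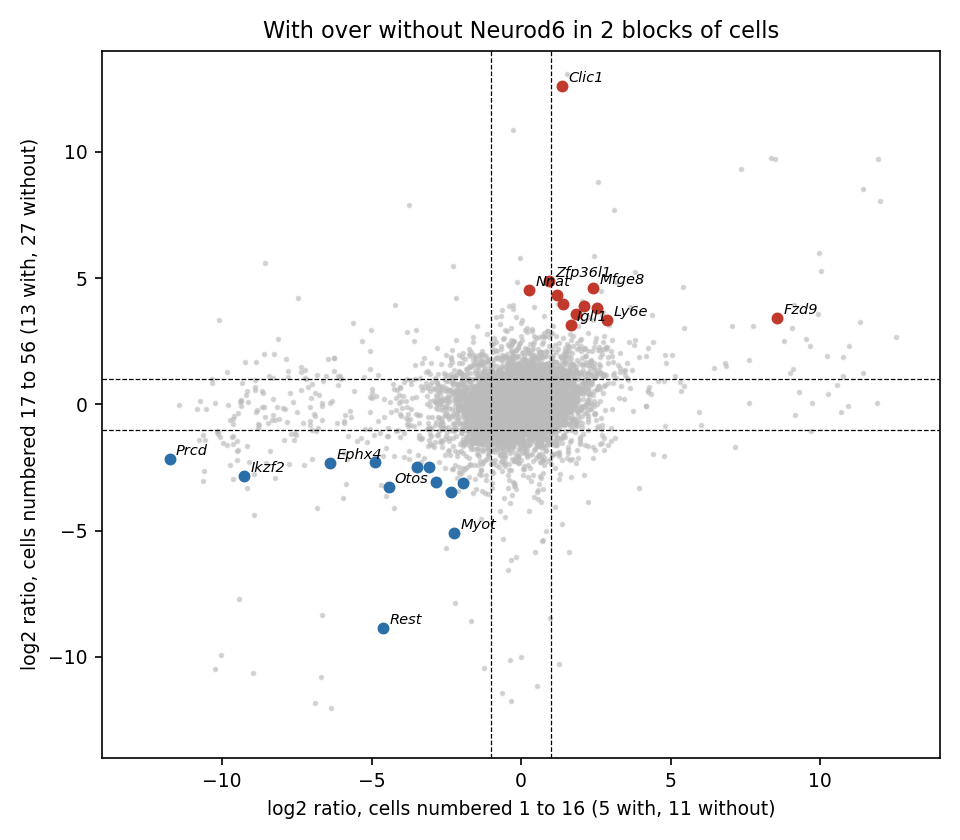
log2 ratio of cells with over cells without Neurod6 for each gene in the cells numbered 1 to 16 (x axis) and 17 to 56 (y axis), with the 12 higher (red) and 12 lower (blue) genes marked and 13 of them named; dashed lines mark 2-fold. Nnat lies near 0 on the x axis (0.28), and Rest is below 2-fold on both (-4.60 and -8.85).

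Insm1, the zinc-finger gene of neurogenic cells and young OHCs that the series title names, was more frequent in cells with Neurod6. It ranged from 0 to 82.7 CPM (median 32.1) with Neurod6, reaching 10 CPM in 14 of 18 cells, and from 0 to 64.3 CPM (median 2.75) without, reaching 10 CPM in 11 of 38. The summed level was 32.1 and 12.6 CPM, a log2 ratio of 1.35 (1.30 to 1.40), with 1.08 and 1.48 in the blocks, against 3.81 CPM in Ctrl OHCs. The sets overlapped throughout this range. Insm1 and Igll1 were both at 10 CPM in 12 of 18 cells with Neurod6 and in 5 of 38 without.

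Genes of immature neurons and neuroendocrine cells, a list that itself holds Insm1 and Nnat, leaned the same way. The share of all genes 2-fold or more higher was 7.69%. Of 36 such genes 21 passed, 9 were 2-fold or more higher and none was 2-fold lower, with a median log2 ratio of 0.34. Besides Nnat and Insm1 they were Insm2 (25.2 and 4.41 CPM), the deubiquitinase gene Uchl1 (38.9 and 9.44 CPM), the zinc-finger factor gene Myt1 (26.0 and 6.47 CPM), Gap43, Sox11, Pcsk1 and Chga. Insm2, Uchl1 and Myt1 passed the minimum only through the cells with Neurod6. Gap43, a growth cone gene with no count in Ctrl OHCs, was 46.2 and 16.4 CPM, in 12 of 18 and 8 of 38 cells. Sox11, a factor of young neurons, was 38.6 and 15.0 CPM (1.36), and the prohormone convertase gene Pcsk1 was 85.2 and 33.6 CPM (1.34). The neurofilament genes Nefl and Nefm were not among them, with ratios of 0.01 and 0.23.

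Of the axon guidance and adhesion list 27 of 44 genes passed, 8 were 2-fold or more higher and none was lower (median 0.25), against 7.69% higher over all genes. The ephrin gene Efna3 was 36.9 and 9.85 CPM (1.91), the Eph receptor gene Epha5 was 75.2 and 24.1 CPM (1.64) and the Slit receptor gene Robo1 was 30.1 and 10.4 CPM (1.53). Efna3 passed the minimum only through the cells with Neurod6. In the first block Efna3 and Epha5 were under 2-fold (0.68 and 0.29). Of the spiral ganglion neuron list 9 of 18 genes passed, with 1 higher, Slc17a6 (109 and 31.8 CPM, 1.77), and 2 lower, Map2 (-1.07) and Thy1 (1.23 and 22.5 CPM, -4.20), for which 1 cell held 98.9% of the counts with Neurod6 (without it almost no count is left there). Prph, Runx1 and Slc17a7 of that list had no count in any mutant OHC. The summed level of the list was 1254 to 4506 CPM with Neurod6 and 1472 to 4659 CPM without, and its part in the neuronal genes' values was not tested.

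Among basic helix-loop-helix and Id factors, 10 of 24 passed and the median was 0.25. Atoh1 was 153 CPM with Neurod6 and 73.2 CPM without, in 15 of 18 and 28 of 38 cells at 10 CPM, a log2 ratio of 1.06 (1.04 to 1.09). In the first block this was 0.43 and in the second 1.19. The knock-in alleles at this locus are the same in both sets. Id2, an inhibitor of these factors, was 136 and 57.6 CPM (1.24), and Bhlhe40, a repressor of the same class, was lower at 16.6 and 95.2 CPM (-2.52), in 3 of 18 and 19 of 38 cells.

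General hair cell identity genes mostly lay within 2-fold. Of 15 that passed, 13 were within 2-fold, and the coiled-coil gene Ccer2 (2660 and 960 CPM, 1.47) and the homeobox gene Barhl1 (197 and 95.1 CPM, 1.05) were higher. The list's median was 0.29 overall and -0.18 in the first block. Of 25 motile cilium genes that passed, 5 were 2-fold higher and none was lower, with 21 above 0 and a median of 0.54. They were Cfap45, Tekt2, Hydin, Ccdc40 and Cfap126. Tekt2, a microtubule protein gene of the axoneme, was 239 and 75.4 CPM (1.67), and it ranged from 0.266 to 465 CPM with and from 0.0623 to 340 CPM without Neurod6. Of 7 vestibular hair cell genes that passed, Zbbx alone was 2-fold higher (30.2 and 5.38 CPM, 2.49). The ratio of Zbbx itself was 0.02 in the first block and 3.33 in the second.

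The purinergic receptors differed in opposite directions. P2rx2, the ATP-gated channel gene of cochlear hair cells, was 4.56 CPM with and 43.4 CPM without Neurod6 (-3.25), in 1 of 18 and 14 of 38 cells, and in 33 of 43 Ctrl OHCs. P2rx3, the channel gene of sensory neurons, was 78.1 and 4.79 CPM (4.03), in 7 of 18 cells and 1 of 38. That 1 cell held 98.7% of the counts without Neurod6, and the ratio was 9.42 without the highest cells. For P2rx2, 1 cell held 99.0% of the counts with Neurod6, and the ratio was -9.63 without them. P2rx4 was 53.5 and 9.10 CPM (2.56), but Ctrl OHCs had 53.0 CPM. Of the 23 ion channel and receptor genes that passed, Kcnn2 and the sodium channel gene Scn8a (26.2 and 53.5 CPM, -1.03) were lower too, and the list's median was 0.06. P2rx3 shares its locus with Ssrp1 on the other strand, so its reads are uncertain.

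Stress and death genes gave short lists of differences. The cell cycle inhibitor and p53 target gene Cdkn1a was 15.6 CPM with and 87.6 CPM without Neurod6 (-2.49), with -3.26 and -2.13 in the blocks and -3.08 without the highest cells, and it reached 10 CPM in 5 of 18 and 21 of 38 cells. Trp53inp1 was also lower (-1.27), and the other 8 of 10 p53 targets that passed were within 2-fold. Among 16 apoptosis genes that passed, Bik (24.5 and 3.06 CPM, 3.00) and Casp6 (75.2 and 34.2 CPM, 1.14) were among those 2-fold higher, and none was 2-fold lower. Psph, the last enzyme of serine synthesis, was 659 and 142 CPM (2.22), with 1.58 and 2.33 in the blocks, and it ranged from 59.4 to 2638 CPM with and from 0 to 824 CPM without Neurod6. Of the 14 stress response genes that passed, Xbp1 (74.9 and 27.6 CPM) and Pdia4 (28.8 and 10.8 CPM) were also higher and Shmt2 (9.23 and 34.3 CPM) was lower, with a list median of 0.32. Psat1 and Phgdh, the other enzymes of that route, were within 2-fold (0.59 and 0.10). Nr4a1, an immediate early gene, was 22.4 and 0.0524 CPM, but 1 cell held 83.4% of its counts with Neurod6 and 3 of 18 cells reached 10 CPM. Of the 11 immediate early genes that passed, Arc was the other higher one (24.0 and 5.10 CPM) and Jun was lower (303 and 644 CPM). Of 7 cell cycle genes that passed Cdkn1a alone was 2-fold apart.

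The oxidative phosphorylation, mitochondrially encoded, ribbon synapse and IHC genes showed little difference. Of 30 nuclear genes of oxidative phosphorylation all lay within 2-fold, 26 of them below 0, with a median of -0.22. The mitochondrially encoded genes had a median of -0.23, with all 12 that passed within 2-fold. Of 22 ribbon synapse and exocytosis genes 19 were within 2-fold, and Syt7, a calcium sensor gene of vesicle release, was the highest (87.4 and 24.1 CPM, 1.86). Of 5 IHC genes that passed none was 2-fold apart. Of 14 calcium buffer genes Hpca was higher (19.1 and 7.03 CPM) and Ocm lower, and of 10 immune genes only C1qb passed (309 and 248 CPM). Of 12 genes listed because they had been higher in mutant than control OHCs, 10 were above 0 here, with a median of 0.59. Igll1, Pde1c and Coro2a were 2-fold or more higher with Neurod6, and Mapk10 was 2-fold or more lower. The list was chosen on these cells. Its counterpart of 11 genes lower in mutants had 1 gene that passed, Ocm. Among 17 splicing regulators 2 were higher, Esrp2 and Khdrbs2, and 2 were lower, Khdrbs3 and Ptbp3. Srrm4, the factor that splices Rest, was 107 and 76.7 CPM (0.48), with -0.47 in the first block and 0.93 in the second, and Srrm3 was 37.6 and 49.9 CPM (-0.41).

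The control OHC with Neurod6 did not enter the ratios by which genes were chosen and could be set beside the mutant cells. It had a total of 6415597 counts and 8868 genes with a count, against Ctrl OHC medians of 9088350 and 9774. Rbm24 was present in it at 208 CPM. It went against its label in part: Slc26a5 was 0.156 CPM, Ikzf2 0 and Ocm 7.64 CPM, each the lowest of the 43 Ctrl OHCs. Of the 12 higher genes it was the highest of all Ctrl OHCs for 8. Nnat was 9711 CPM against at most 18.3 CPM in the other 42 cells, and Mfge8 was 352 CPM against at most 0.139 CPM. The Ctrl OHC levels of Nnat and Mfge8 therefore come almost wholly from this cell. Atoh1 (233 CPM) and P2rx3 (432 CPM), both fixed by name, were also the highest of all Ctrl OHCs there. So was Bcl11b (307 CPM), but it was named after its values were seen. In the mutant OHCs Bcl11b was not higher with Neurod6. Of the 12 lower genes 11 were under 1 CPM in it, Rest at 0.156 CPM against a median of 36.6 CPM in the others, and only Ephx1 was present (84.2 CPM). The share of all genes under 1 CPM in it was not counted. Against the summed other Ctrl OHCs, 49.7% of all genes compared were 2-fold or more lower in it. Insm1, Igll1 and Gm34653 had no count in it.

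Larger sets of genes were compared in the same way. In this cell 22.8% of 9192 genes were 2-fold or more higher than in the summed other Ctrl OHCs and 49.7% were 2-fold or more lower. Of 304 genes that were higher with Neurod6 in both blocks of mutant cells, 53.3% were 2-fold higher in it and 35.5% were 2-fold lower, and it was the highest Ctrl OHC for 33.6% of them against 8.95% of all genes. Of 296 genes that were lower in both blocks, 82.4% were lower in it and 8.45% higher. Of all 698 genes higher with Neurod6 over both blocks together, 44.0% were higher in it and 44.3% lower. Counted per cell, it had 181 of the 313 higher genes at 10 CPM, where the other 42 Ctrl OHCs had 36 to 148. It had 60 of the 299 lower genes, where the others had 111 to 212. It thus lay outside the range of the other Ctrl OHCs on both counts. Exp IHCs, which also did not enter the choice, had 76 to 199 of the higher genes (median 124) and 95 to 149 of the lower genes (median 117.5). Ctrl IHCs had medians of 106 and 137.5. In the mutant OHCs on which the genes were chosen, the counts were 70 to 245 (median 195) of the higher and 43 to 136 (median 80) of the lower genes with Neurod6, and 31 to 162 (median 87.5) and 75 to 205 (median 145) without. The 2 sets overlapped on both counts.

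**Figure D5:**
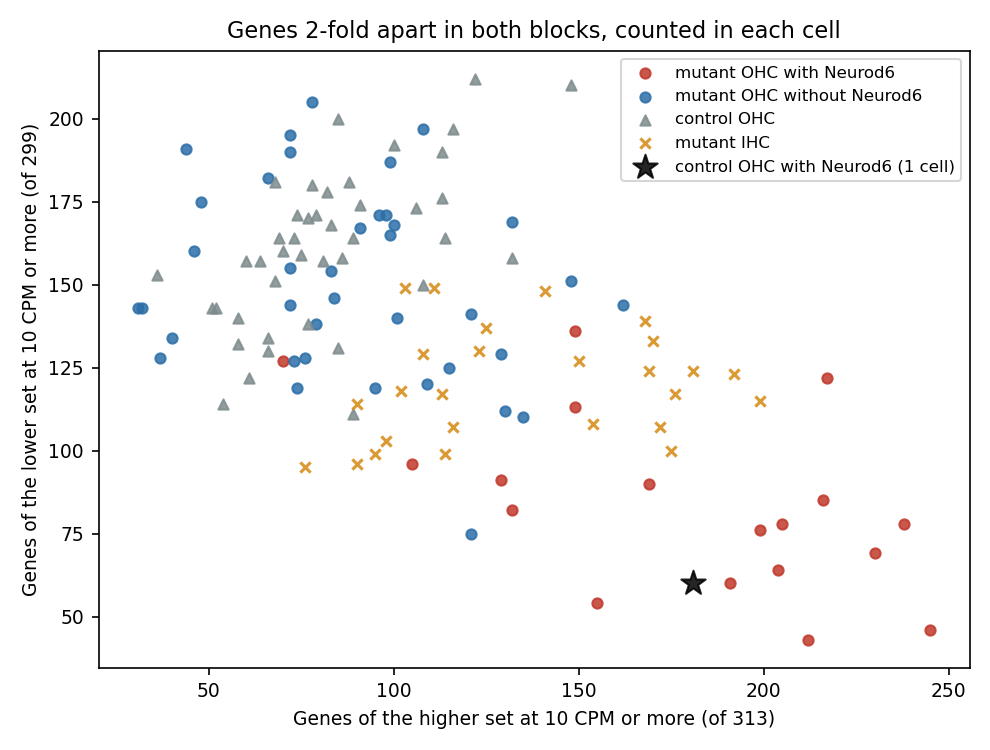
Number of the 313 higher genes (x axis) and of the 299 lower genes (y axis) at 10 CPM or more in each mutant OHC, Ctrl OHC and Exp IHC; each point is a cell. The Ctrl OHC with Neurod6 (star, 181 and 60) lies among the mutant OHCs with Neurod6 and outside the other 42 Ctrl OHCs.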

How the data were processed

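Counts per gene and cell are those the authors deposited. HISAT2 2.2.1, SAMtools, featureCounts 2.0.1 and mm10 are named per the submitters' processing notes; the annotation, strand setting and treatment of shared reads are not given in the sources used here. The number of cells equals the 81 control and 82 mutant cells that passed the authors' quality check, per the series text, and no cell was left out. Gene names came from GENCODE M21 (55034 of 55291 identifiers).

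Each set's counts were added up and scaled to its total (CPM, per 1000000; Python 3.11.15, scipy 1.17.1). The log2 ratio of the sums has an exact conditional binomial 95% interval, and levels an exact Poisson one. A sum of 0 was set to a floor of 3 counts. Genes with 10 CPM or more in the mean of both sets were compared, and 2-fold was the limit for counting a gene. The log2 ratio, but not its interval, was tried on simulated data with known changes. No 2 mutant OHC columns were identical. The named genes were protein-coding, had a level of at least 20 CPM in their higher set and reached 10 CPM in at least 50% of its cells, with the pooled ratio, the ratio in each block and the ratio without the highest cells on the same side of 0; the 12 largest pooled ratios each way were taken, with 7 further genes fixed by name and 2 to 4 members of each list. Other genes were named after their values were seen (Bcl11b, Srrm3, Srrm4, Cdkn1a, Bhlhe40, Psat1, Phgdh, Nefl and Nefm among them). The members and lists were chosen with earlier results of these data known. Alternatives used edgeR 4.0.16 and DESeq2 1.42.0 for scaling only. Myo15a, Dnai1 and Dnai2 were not analysed here.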

Additional observations from a re-analysis of the deposited data

How the results depend on the processing

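No paired analysis was possible because the results come from no test and the title numbers only number the cells of a group. Over 13 alternative settings the number of genes 2-fold higher moved beyond 1.5 times of 709 in 3: 2100 with genes at 1 CPM or more, 3832 with no minimum and 1068 in cells numbered 1 to 16 alone. The number 2-fold lower moved from 600 to 2085, 5248 and 1204 under the same settings and to 947 without the highest cell of each set. The first 2 settings admit more genes and the block alone has fewer cells. The last leaves out 1 of 18 cells with Neurod6 and 1 of 38 without, a larger share of the smaller set. It moved the all-gene median from 0.05 to -0.04, and the cause of the 947 was not tested. In the block alone the minimum was set on its own cells. TMM and DESeq2 scaling moved the all-gene median from 0.05 to -0.01 and -0.02, and gave 634 higher and 674 lower, and 629 higher and 678 lower. The number of mutant OHCs with Neurod6 was 21, 20, 17 and 14 at thresholds of 1, 5, 20 and 50 CPM, and 18 when each cell was thinned to 8342675 counts. Of the single genes recomputed, the 32 with a ratio beyond 2-fold kept their sign in all 416 values. The 12 lower and 12 higher genes among them were chosen for the same sign in both blocks and without the highest cells. For these genes the sign under those settings was fixed by the choice. Of 10 genes within 2-fold, 6 changed sign in the cells numbered 1 to 16 (Rbm24 to 1.28, Bcl11b to 0.13, Srrm4 to -0.47, Gfi1 to -0.26, and Gm15772 and Srrm3 near 0). Of 23 list medians 12 changed sign under 1 setting or more, 8 of them in the cells numbered 1 to 16. Those farthest from 0 were hair cell identity, -0.18 in that block, and cell cycle, 0.44 otherwise, -0.24 with no minimum. The medians of the hair bundle, mechanotransduction, ion channel, ribbon synapse, IHC, calcium buffer, p53, apoptosis, immediate early and splicing lists lay close to 0, and no direction is read from them. Leaving out the 3 cells with neither Xist nor Y-linked transcripts (743 higher, 606 lower) and comparing only with cells under 1 CPM of Neurod6 (755 and 645) were chosen after seeing the data. Cells are not replicates, and how these values vary between animals is not measured.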
